A study of Mus musculus with 10 samples.

Results

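The Frizzled receptor family was measured with 13 probes for 10 genes, Fzd1 to Fzd10, out of 34832 gene names and 55681 non-control probes on a mouse expression array. Probes were taken when the array's own annotation named a Frizzled gene, a step that used no measured value. The family itself was chosen with earlier results of these data known. Fzd2, Fzd5 and Fzd7 each had 2 probes and the other genes had 1.

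The study asked what happens to the transcriptome when grafted blood stem and progenitor cells fuse with cells of the midbrain. All recipient mice had been treated with MPTP, a toxin that damages dopaminergic neurons, and received lineage-negative haematopoietic stem and progenitor cells (HSPCs) on 1 side, over the substantia nigra, at day 3 after the last injection. Cells were sorted 1 week after the graft as RFP+YFP+ (hybrids) or RFP+ (unfused), and RNA was amplified to cDNA before labelling. Each replicate pooled 2 mice and each group had 2 replicates.

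R26Y hybrids were RFP+YFP+ cells from R26Y mice, which carry a Cre-dependent YFP reporter, grafted with HSPCs that carried Cre and RFP. GFAP-Cre hybrids were RFP+YFP+ cells from mice in which the GFAP promoter, active in astrocytes, drives Cre, grafted with R26Y HSPCs. FoxA2-Cre hybrids were RFP+YFP+ cells from mice with Cre under FoxA2, a gene of midbrain dopaminergic neurons, also grafted with R26Y HSPCs. The unfused cells were RFP+ only. Those of the R26Y and GFAP-Cre recipients were combined and hybridised as 2 arrays, called pooled unfused cells here, and serve both hybrid types. FoxA2-Cre unfused cells were hybridised on their own. The source labels gave no age or sex.

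Frizzled proteins are cell-surface receptors that bind Wnt ligands, together with the co-receptors Lrp5 and Lrp6, and pass the signal to Dishevelled and on to beta-catenin, or to the planar polarity branch. In the midbrain, Wnt signalling takes part in the formation of dopaminergic neurons, and in the bone marrow in the regulation of blood stem cells. By sequence, Fzd5 and Fzd8 form one branch of the family, Fzd1, Fzd2 and Fzd7 another, Fzd4, Fzd9 and Fzd10 a further branch, and Fzd3 and Fzd6 the remaining one.

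The sequences shown first are the most similar pair of probes for different Frizzled genes, since members of a branch can resemble each other. One Fzd2 probe and one Fzd7 probe matched at 42 of 50 aligned bases (84.0%), where the next highest of 75 pairs reached 53.5% and the median was 39.6%. Capitals mark the letters that match. No Frizzled probe shared a run of 20 bases with a probe of another gene. The Fzd5 probe is shown because, like that pair, it has 2 forward reading frames without a stop codon. It was also the only Frizzled probe well above background on all 10 arrays. It has no capitals.
Fzd2 A_51_P404077 (mm9 chr11:102467613-102467672, plus strand): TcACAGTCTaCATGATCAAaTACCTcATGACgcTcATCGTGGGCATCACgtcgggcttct
Fzd7 A_51_P142107 (mm9 chr1:59541367-59541426, plus strand): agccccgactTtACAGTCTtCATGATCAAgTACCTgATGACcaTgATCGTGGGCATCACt
Fzd5 A_51_P166456 (mm9 chr1:64781972-64782030, minus strand): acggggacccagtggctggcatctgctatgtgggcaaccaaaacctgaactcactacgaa

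Positions are those written in the array's own annotation, and exon or UTR annotation of that build was not used here. Paired probes of a gene started 1432 bases apart for Fzd2, 2493 for Fzd5 and 1825 for Fzd7.

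The arrays fell into 2 sets that limit every statement below. R26Y hybrids, GFAP-Cre hybrids and pooled unfused cells shared slide 1 and its scan, and both FoxA2-Cre groups shared slide 2, so slide and recipient set cannot be told apart. Of all probes, 64.8% to 87.1% were well above background on the slide 1 arrays and 20.4% to 50% on the slide 2 arrays. The signal used to scale each array lay between 1413 and 2639 on slide 1 and between 176.1 and 754.4 on slide 2. R26Y hybrid replicate 2 stood apart on slide 1, with 64.8% of probes well above background, against 81.9% to 87.1% on the other 5 arrays. Leukocyte marker probes, of 6, were well above background on 6 and 5 in R26Y hybrids, 6 and 5 in GFAP-Cre hybrids and 3 and 2 in FoxA2-Cre hybrids, against 6 and 6 in pooled and 5 and 2 in FoxA2-Cre unfused cells. Astrocyte probes, of 12, numbered 10 and 8, 9 and 9, and 1 and 3 in the same hybrids, against 10 and 10 in pooled and 5 and 5 in FoxA2-Cre unfused cells. Dopaminergic neuron probes, of 10, numbered 8 and 6, 8 and 9, and 3 and 1, against 9 and 8, and 5 and 5. The FoxA2-Cre hybrid arrays thus had at most 3 probes of each of these lists well above background. One probe of Ptprc, the pan-leukocyte gene, and one of Th, the dopamine synthesis enzyme, were well above background on all 10 arrays. Neutrophil marker probes were well above background on 4 to 6 of 6 on the slide 1 hybrid arrays, 2 and 0 on the FoxA2-Cre hybrid arrays, 6 on both pooled unfused arrays and 4 on both FoxA2-Cre unfused arrays. The log2 summed scaled signal of that list was −2.10 to −1.67 in R26Y hybrids, −2.08 to −0.35 in GFAP-Cre hybrids and −2.32 to −2.08 in FoxA2-Cre hybrids, against 0.31 to 1.32 in pooled and 4.01 to 4.14 in FoxA2-Cre unfused cells. For microglia markers it was −0.89 and 3.21 in R26Y hybrids, 0.40 and −0.67 in GFAP-Cre hybrids and 5.63 and 7.29 in FoxA2-Cre hybrids, against −0.85 and −1.23 in pooled and 3.27 and 3.87 in FoxA2-Cre unfused cells. The highest readings were Cx3cr1 A_55_P2007964 (4.64 and 6.30) and Trem2 (4.60 and 6.27) in FoxA2-Cre hybrids. In FoxA2-Cre unfused cells that Cx3cr1 probe read 3.23 and 2.42, and Trem2 read −4.36 and 3.19. Trem2 read 3.03 in R26Y hybrid replicate 2. In FoxA2-Cre hybrids the other Cx3cr1 probe was not well above background. There the P2ry12, Tmem119 and C1qa probes lay between −5.07 and −2.88. Microglia probes, of 6, were well above background on 6 and 5 in R26Y hybrids, 6 and 5 in GFAP-Cre hybrids and 5 and 2 in FoxA2-Cre hybrids, against 6 and 6 in pooled and 4 and 4 in FoxA2-Cre unfused cells. The part of either list in the Frizzled values was not tested.

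Most Frizzled genes gave a signal on slide 1 and hardly any on slide 2. Frizzled probes well above background numbered 10 and 4 in R26Y hybrids, 8 and 9 in GFAP-Cre hybrids, and 9 and 10 in pooled unfused cells. They numbered 1 and 1 in FoxA2-Cre hybrids, against 3 and 1 in FoxA2-Cre unfused cells. Over all 10 arrays, 1 of the 13 Frizzled probes was well above background throughout, against 16.6% of all probes, and 3 of 13 were so on no array, against 5.99% of all probes. On all 6 arrays of slide 1, 3 of 13 Frizzled probes were well above background, against 59.6% of all probes. In sorted bulk RNA, fewer cells that express a gene and less RNA per cell cannot be told apart.

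**Figure D1:**
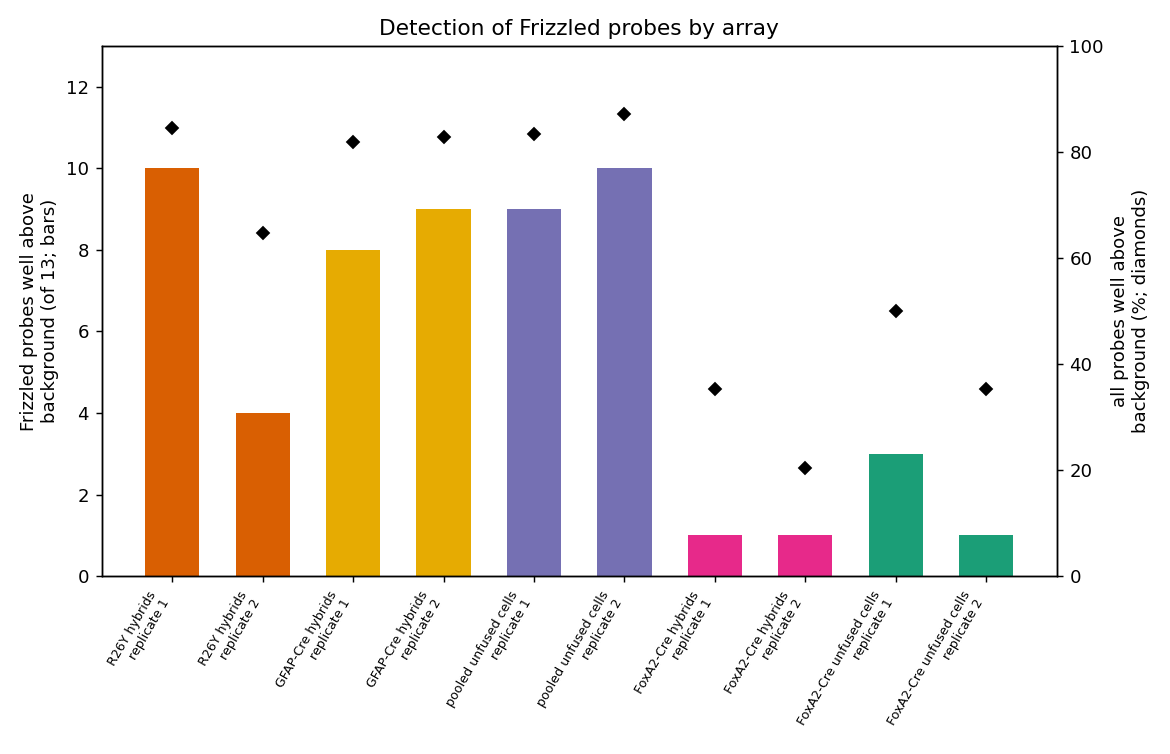
Bars give the number of Frizzled probes well above background on each array (left axis, of 13) and diamonds the percentage of all probes well above background (right axis). The bars reach 8 to 10 on 5 of the slide 1 arrays, 4 on R26Y hybrid replicate 2, and 1 to 3 on the FoxA2-Cre arrays.

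Fzd5, a receptor known for its roles in eye and gut development, was the member detected in every sample, by probe A_51_P166456 only. That probe read 227 and 295 in R26Y hybrids, 215 and 364 in GFAP-Cre hybrids, and 170 and 303 in pooled unfused cells, in processed signal units. On slide 2 it read 41.6 and 52.3 in FoxA2-Cre hybrids, against 49.5 and 63.7 in FoxA2-Cre unfused cells. Hybrid and unfused signals overlapped on both slides. After scaling, which takes log2 of the signal minus the log2 75th percentile of that array, the highest group mean was that of FoxA2-Cre hybrids, −2.51 ± 1.07 (SD, n = 2). R26Y hybrids followed at −2.72 ± 0.65, GFAP-Cre hybrids at −2.90 ± 0.06, pooled unfused cells at −3.23 ± 0.24 and FoxA2-Cre unfused cells at −3.26 ± 0.94. Each pair of neighbours in that order differed by less than the larger SD of the pair, except GFAP-Cre hybrids and pooled unfused cells, whose gap of 0.33 exceeded both SDs. The place of FoxA2-Cre hybrids across slides turned with the values used: in the authors' matrix they averaged 7.71 ± 1.18, against 8.92 ± 0.93 in R26Y hybrids and 8.31 ± 0.16 in pooled unfused cells. The scaled difference from unfused cells was 0.51 ± 0.74 in R26Y hybrids (SE, 95% interval −1.20 to 2.21), 0.33 ± 0.74 in GFAP-Cre hybrids (−1.37 to 2.04) and 0.76 ± 0.74 in FoxA2-Cre hybrids (−0.95 to 2.46).

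The second Fzd5 probe, A_66_P128199, differed from A_51_P166456 in detection on 1 array of slide 1 and on every slide 2 array. It read 116 and 11.3 in R26Y hybrids, 110 and 144 in GFAP-Cre hybrids, and 54.7 and 147 in pooled unfused cells, and was well above background on all of these except R26Y hybrid replicate 2. On that array the other Fzd5 probe gave 295, among the higher of its values. On slide 2 A_66_P128199 lay between 4.60 and 11.4 and was not well above background on any array. Its difference in R26Y hybrids was −0.99 ± 0.94, of opposite sign to that of A_51_P166456, and both intervals held 0.

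Fzd8, the nearest relative of Fzd5, was well above background on 5 of 6 slide 1 arrays and 1 of 4 slide 2 arrays. It read 38.3 and 28.0 in R26Y hybrids, 36.3 and 28.5 in GFAP-Cre hybrids, and 13.3 and 45.5 in pooled unfused cells, where the lower value was not well above background. In FoxA2-Cre hybrids it read 10.6 and 7.27, neither well above background, against 16.7 and 3.69 in FoxA2-Cre unfused cells, of which the first was. With hybrid types combined and recipient set as a covariate, the difference for Fzd8 was 0.84 ± 0.44 (SE, 95% interval −0.14 to 1.81, limma adjusted p = 1.00), which did not pass.

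Fzd2, a receptor of both Wnt branches, gave the most variable readings. Probe A_52_P129428 read 912 and 3.50 in R26Y hybrids, 419 and 1584 in GFAP-Cre hybrids, and 249 and 505 in pooled unfused cells. R26Y hybrid replicate 2 was not well above background, so the 2 R26Y hybrid replicates were at least 40.7-fold apart after scaling, set against the lowest scaled level that counted as well above background on that array. Probe A_51_P404077 of the same gene read 45.9 and 18.8 in R26Y hybrids, 58.7 and 127 in GFAP-Cre hybrids, and 45.0 and 61.8 in pooled unfused cells, and was well above background on all 6. On slide 1 both probes were lowest in R26Y hybrid replicate 2 and highest in GFAP-Cre hybrid replicate 2, but the R26Y hybrid signals were 2.44-fold apart for A_51_P404077. On slide 2 neither probe was well above background on any array, with readings of 2.54 to 6.94.

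The R26Y difference for A_52_P129428 was −2.33 ± 2.03 (SE, 95% interval −7.01 to 2.36), and that for A_51_P404077 was −0.52 ± 0.88 (−2.55 to 1.50). The call for A_52_P129428 rests on which R26Y replicate is kept. Without R26Y hybrid replicate 1, leaving only the array where A_52_P129428 was not well above background, the fitted difference was −6.07 with an adjusted p of 0.0157 (limma), and 3897 of the probes on the array were called in that comparison. The lone R26Y array is assumed there to vary like the other groups. In the same setting the GFAP-Cre minus R26Y value was 7.30 (limma adjusted p = 0.0107), with 3658 probes called. Both values are set against that undetected reading, and as bounds the lone R26Y array was at least 15.3-fold below pooled unfused cells and at least 35.9-fold below GFAP-Cre hybrids. With all arrays the GFAP-Cre minus R26Y difference was 3.56 ± 2.03 (−1.12 to 8.25) and did not pass.

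**Figure D2:**
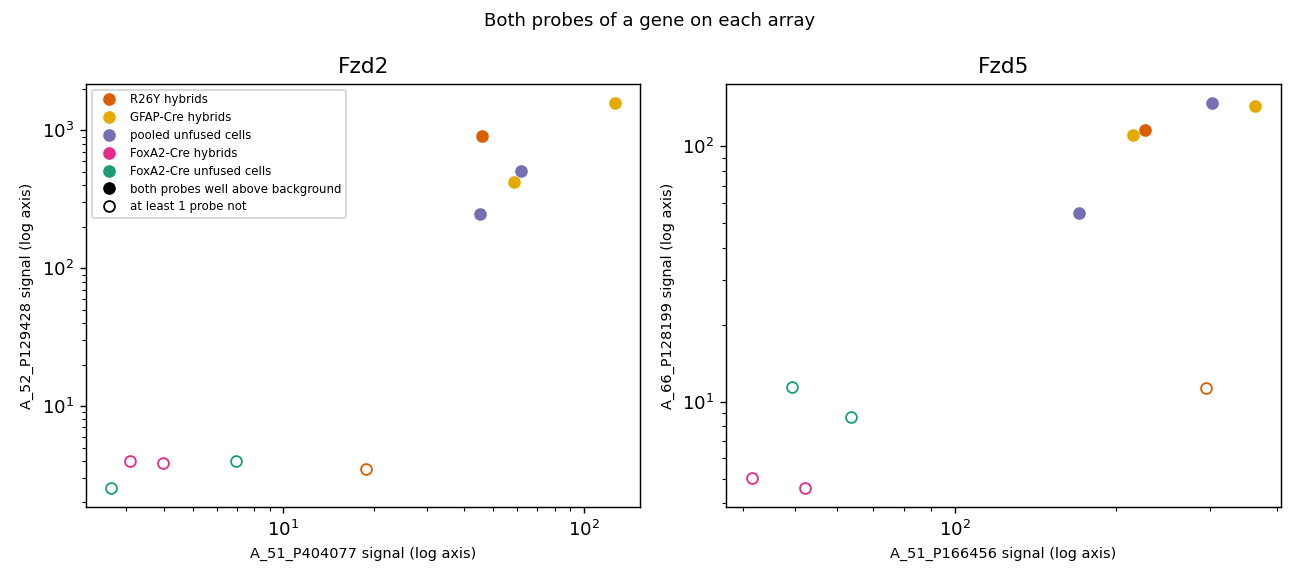
Each point is 1 array, with the signal of one probe of Fzd2 (left) or Fzd5 (right) on the x axis and of the other probe on the y axis, both log axes. In both panels R26Y hybrid replicate 2 lies low on the y axis, at 3.50 for Fzd2 and 11.3 for Fzd5, while on the x axis it reads 18.8 for Fzd2, the lowest of slide 1, and 295 for Fzd5, between the other slide 1 arrays.

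Fzd1, a receptor described in dopaminergic neurons, read 32.6 and 5.70 in R26Y hybrids, 13.7 and 10.04 in GFAP-Cre hybrids, and 30.7 and 44.2 in pooled unfused cells. It was well above background in R26Y hybrid replicate 1 and in both pooled unfused arrays only. Its scaled mean was −7.47 ± 0.80 in GFAP-Cre hybrids and −5.85 ± 0.03 in pooled unfused cells (SD, n = 2 each). Neither GFAP-Cre array was well above background, so the fold is a bound, at least 2.15-fold lower in the hybrids, set against the lowest signal that counted as well above background on each array. The fitted difference was −1.62 ± 1.07 (95% interval −4.09 to 0.85, limma adjusted p = 1.00) and did not pass. On slide 2 Fzd1 lay between 2.70 and 9.06 and was not well above background on any array.

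Fzd7, studied as a receptor of stem cells, was not well above background on any array with either probe. A_51_P142107 read 10.66 and 3.29 in R26Y hybrids, 16.7 and 7.29 in GFAP-Cre hybrids, and 2.93 and 7.65 in pooled unfused cells. A_52_P552665 lay between 3.30 and 18.1 over all arrays. A_51_P142107 was thus well above background on 0 of 6 slide 1 arrays, against 6 of 6 for the Fzd2 probe that shares 42 of its letters. Both Fzd7 probes stayed out of the tests, which needed 2 arrays well above background.

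Fzd9, a receptor found in hippocampal neurons, was well above background on all slide 1 arrays and on 1 slide 2 array. It read 125 and 55.4 in R26Y hybrids, 129 and 194 in GFAP-Cre hybrids, and 107.4 and 152 in pooled unfused cells. FoxA2-Cre hybrids read 15.7 and 10.2, against 31.8 and 10.73 in FoxA2-Cre unfused cells. After scaling, GFAP-Cre hybrids stood highest at −3.72 ± 0.07, followed by pooled unfused cells at −4.06 ± 0.01, R26Y hybrids at −4.35 ± 0.45, FoxA2-Cre hybrids at −4.38 ± 0.40 and FoxA2-Cre unfused cells at −4.87 ± 0.43 (SD, n = 2 each). Here too the order across slides turned with the values used: with normexp background correction FoxA2-Cre hybrids stood highest at −2.13 ± 0.51, against −3.27 ± 0.19 in GFAP-Cre hybrids. Fzd9 had the smallest standard error of the family. Its differences from unfused cells were −0.30 ± 0.55 in R26Y hybrids (95% interval −1.56 to 0.96), 0.34 ± 0.55 in GFAP-Cre hybrids (−0.92 to 1.60) and 0.48 ± 0.55 in FoxA2-Cre hybrids (−0.78 to 1.74), where neither hybrid array was well above background.

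Fzd4, the receptor of Norrin in vessels of the retina and brain, read 79.0 and 8.39 in R26Y hybrids, 73.3 and 16.9 in GFAP-Cre hybrids, and 42.5 and 55.2 in pooled unfused cells. Each hybrid type had 1 array above both unfused arrays and 1 array below them. The lower R26Y hybrid array, replicate 2, was not well above background, while all other slide 1 arrays were. On slide 2 Fzd4 lay between 3.31 and 10.8 and was not well above background. Fzd10, the last of this branch, read 3.19 to 7.83 over the 10 arrays and was not well above background on any.

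Fzd3 and Fzd6 are known for planar polarity, Fzd3 in axon guidance and Fzd6 in hair patterning. Fzd3 read 82.3 and 3.40 in R26Y hybrids, 55.0 and 373 in GFAP-Cre hybrids, and 146 and 76.9 in pooled unfused cells. Fzd6 read 202 and 10.9 in R26Y hybrids, 13.4 and 259 in GFAP-Cre hybrids, and 139 and 122 in pooled unfused cells. Neither was well above background in R26Y hybrid replicate 2, nor was Fzd6 in GFAP-Cre hybrid replicate 1. After scaling, the Fzd6 replicates were at least 9.04-fold apart in R26Y hybrids and at least 8.89-fold apart in GFAP-Cre hybrids, while in pooled unfused cells, with both arrays well above background, they were 0.68 apart on the log2 scale. On slide 2 Fzd3 lay between 4.02 and 5.45 and Fzd6 between 2.91 and 5.99, and neither was well above background.

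**Figure D3:**
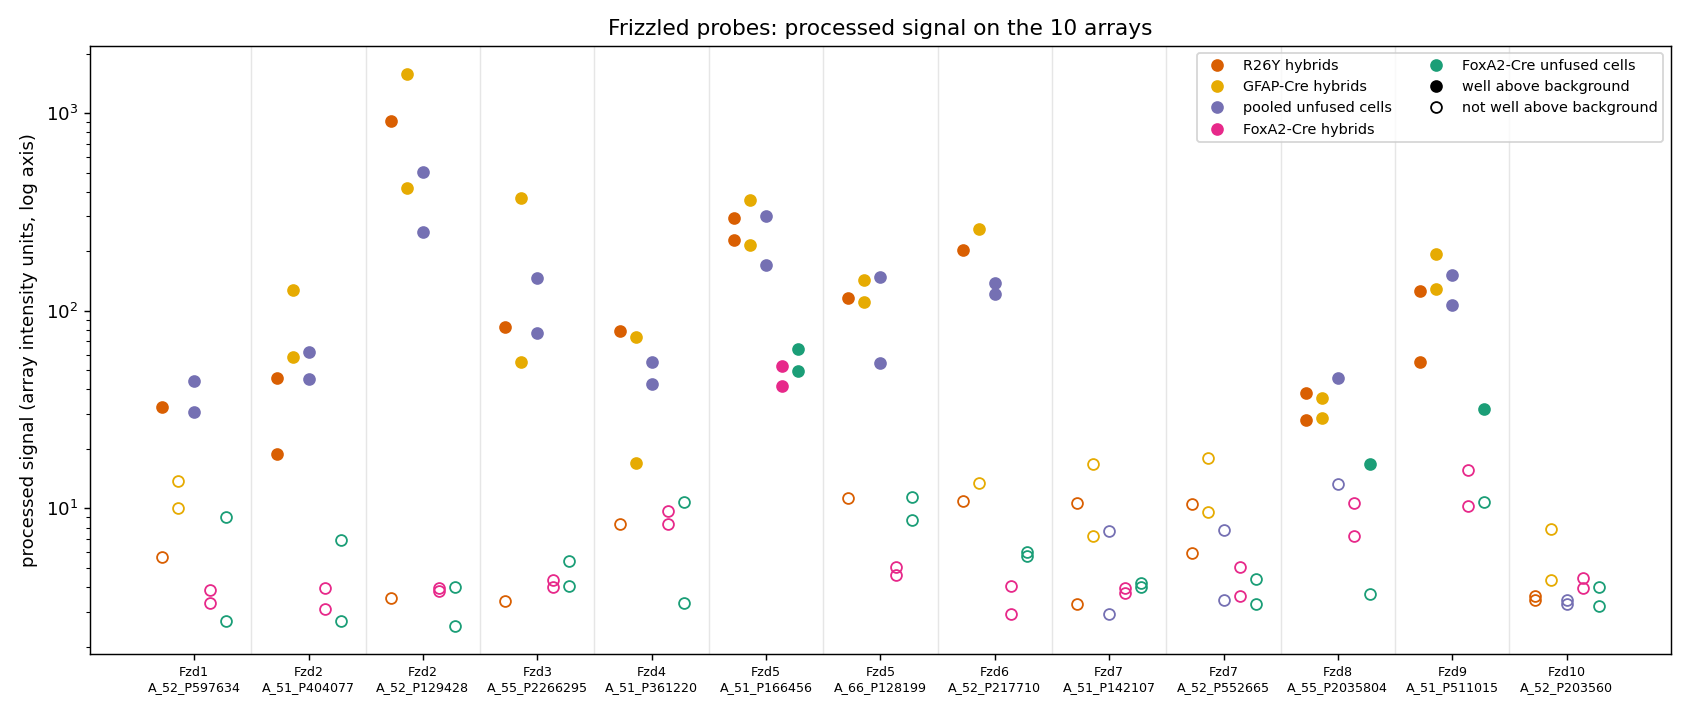
Processed signal of every Frizzled probe on each of the 10 arrays, on a log axis, with filled points well above background and open points not. Fzd5 A_51_P166456 has filled points in all 5 groups, Fzd7 and Fzd10 have none, and on the FoxA2-Cre arrays 6 points are filled in all.

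No Frizzled probe passed the test in any comparison between hybrids and unfused cells. The p-values measure the spread between replicates that each pooled 2 mice, with 2 arrays a group. Of the 13 probes, 10, for 8 genes, were tested by limma among 50005. In R26Y hybrids against pooled unfused cells 0 of 10 were called, where 0% of all probes were, with 787 probes and no Frizzled probe at an unadjusted p under 0.05. The median Frizzled difference was −0.79, against −0.29 over all probes, and 2 of 10 were positive, against 34.4% of all probes. With quantile normalization those medians were −0.15 and 0.04, with the authors' matrix −0.07 and 0.01, and with the 75th percentile over all spots −0.46 and 0.04. In GFAP-Cre hybrids 0 of 10 were called, again 0% of all probes, with 980 probes and no Frizzled probe under 0.05. The median was 0.38, against 0.04 over all probes, and 7 of 10 were positive, against 53.2%. With quantile normalization those medians were 0.31 and 0.01, and with the authors' matrix 0.16 and −0.004. With the array's row on the slide as a block they were −0.26 and −0.05, and with its column 1.11 and 0.27. The R26Y and GFAP-Cre comparisons share both unfused arrays, so their values stand side by side only.

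**Figure D4:**
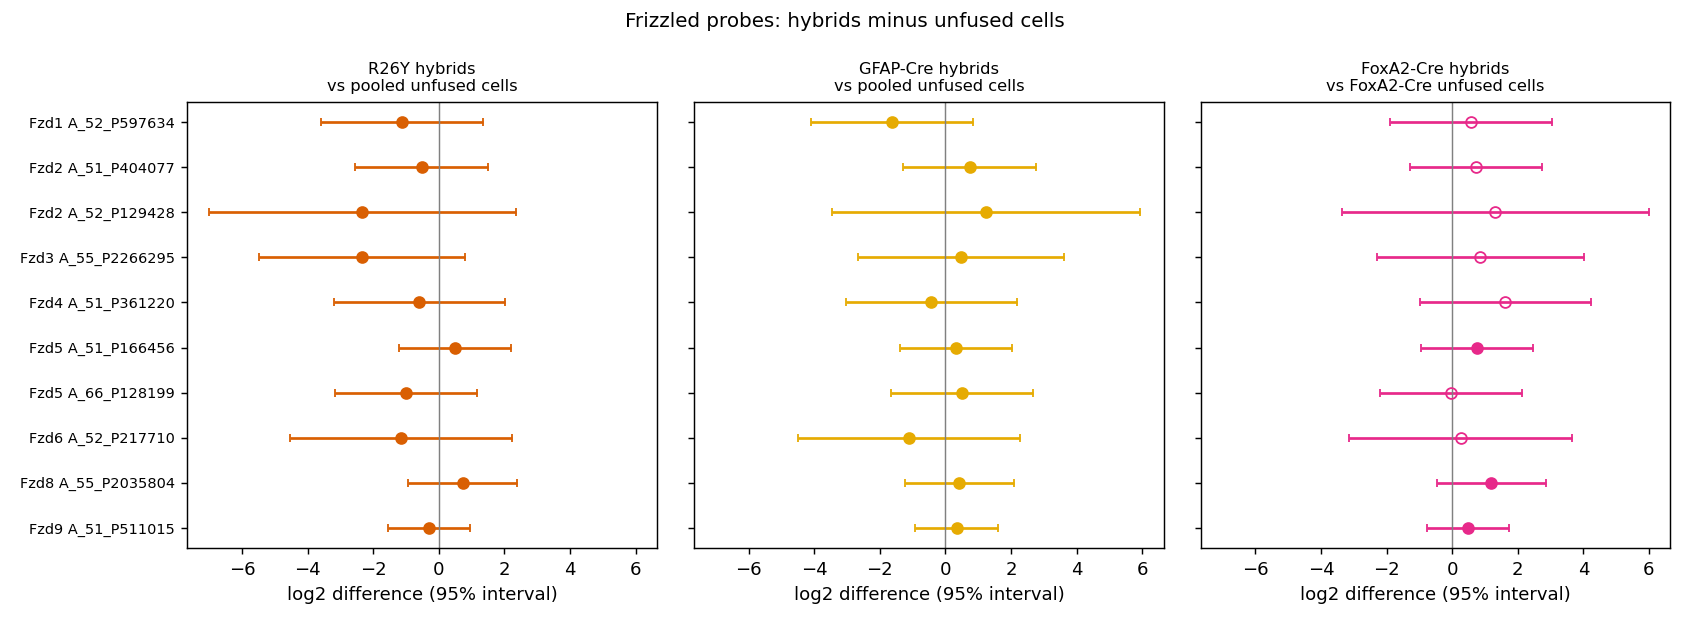
Scaled log2 differences of hybrids minus unfused cells for the 10 tested Frizzled probes, with 95% intervals from limma, 1 panel per hybrid type; open points mark probes not well above background on any array of either group. All 30 intervals hold 0.

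In FoxA2-Cre hybrids 0 of 10 Frizzled probes were called, where 0.344% of all probes were, 18 higher and 154 lower (44 and 144 with the authors' matrix). When the fit took the array's row on the slide as a block, or its column, or used slide 2 alone, that count over all probes was 0. The smallest adjusted p of a Frizzled probe was 0.706 (limma), for Fzd8, with a difference of 1.19 ± 0.72 (95% interval −0.47 to 2.85), with neither hybrid array well above background. Of 10 differences 9 were positive, against 66% of all probes, with a median of 0.74 against 0.43 over all probes. With quantile normalization the Frizzled median was 0.21 against 0.11, with the authors' matrix 0.01 against 0.03, and with normexp 0.79 against 0.74. Fzd5 A_51_P166456 was the only Frizzled probe well above background on both arrays of both groups. The other 9 were not well above background on either hybrid array, so their differences are those of scaled background against the unfused arrays. The scaling signals were 398.4 and 176.1 on the FoxA2-Cre hybrid arrays, against 754.4 and 386.1 on the unfused arrays. Fzd10, for example, read 4.44 and 3.95 in the hybrids against 4.02 and 3.19 in the unfused cells, none well above background, with scaled means of −5.98 in the hybrids and −7.23 in the unfused cells. The lowest scaled level that counted as well above background was −5.02 and −3.47 on the FoxA2-Cre hybrid arrays and −5.99 and −4.90 on the unfused arrays, against −7.83 to −6.50 on slide 1.

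With all hybrids combined, 0 of 10 Frizzled probes were called, 0% of all probes were, and 1440 probes but no Frizzled probe had an unadjusted p under 0.05. GFAP-Cre hybrids against R26Y hybrids gave 0 of 10 and 0% of all probes, with 1540 probes and no Frizzled probe under 0.05. There the median Frizzled difference was 0.40 against 0.33 over all probes, and with quantile normalization −0.05 against −0.04. Fzd3 had 2.81 ± 1.36 (95% interval −0.34 to 5.96), with 1 of 2 R26Y arrays well above background. The hybrid effect in FoxA2-Cre mice minus that in R26Y and GFAP-Cre mice was called for 0 of 10 Frizzled probes, where 0.062% of all probes were. Of the 10 values all were positive, and 64.9% of all probes were, but for every probe except Fzd5 A_51_P166456 the values rest on scaled background on the FoxA2-Cre hybrid arrays.

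Scaled levels of the compared groups' arrays did not overlap for 3 of 10 Frizzled probes in R26Y hybrids, against 29.8% of all probes, for 5 of 10 in GFAP-Cre hybrids, against 34.7%, and for 2 of 10 in FoxA2-Cre hybrids, against 36.8%. Between GFAP-Cre and R26Y hybrids the count was 2 of 10, against 27.7%. The 5 in GFAP-Cre hybrids were both Fzd2 probes, Fzd5 A_51_P166456 and Fzd9, which lay above the unfused arrays, and Fzd1, which lay below them. The processed signals of the first 4 overlapped those of the unfused arrays, and those of Fzd1 did not.

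The rest of the pathway was read from 5 lists, and none of their 17 co-receptor, 20 turnover and inhibitor, 30 transducer, 13 planar polarity and 19 target probes tested passed in R26Y or GFAP-Cre hybrids, where 0% of all probes did, or in FoxA2-Cre hybrids, where 0.344% did. Lrp5, the Frizzled co-receptor, had one probe well above background on all 10 arrays, with differences of −0.29 ± 0.51 in R26Y, −0.18 ± 0.51 in GFAP-Cre and 0.06 ± 0.51 in FoxA2-Cre hybrids. Lrp6, the partner of Lrp5, differed in FoxA2-Cre hybrids by 2.38 ± 0.86 with one probe, well above background on 1 of 2 arrays of each group, and 0.76 ± 0.64 with the other, on 1 of 2 hybrid arrays. Neither passed. The Dishevelled genes, which bind the Frizzled tail, had differences of −0.21 (Dvl2 in FoxA2-Cre hybrids) to 0.49 (Dvl2 in GFAP-Cre hybrids). Dvl1 in FoxA2-Cre hybrids stood outside that range, at least 1.34-fold lower as a bound, with neither hybrid array well above background (limma adjusted p = 0.681). Ctnnb1, which encodes beta-catenin, was measured by one probe that was well above background in both GFAP-Cre hybrid arrays and neither pooled unfused array, at least 2.71-fold higher as a bound (limma adjusted p = 1.00). The Ctnnb1 probe was not well above background on any other array. It lay at −5.97 and −6.09 in GFAP-Cre hybrids, where the lowest levels that counted as well above background were −6.498 and −7.405. Axin2, a target and inhibitor of the pathway, had differences of 0.17 in R26Y and 0.49 in GFAP-Cre hybrids, each ± 0.73, and was not well above background on either FoxA2-Cre hybrid array.

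Values of the next genes are each from the probe with the smallest p, and none passed. Gsk3b, a kinase that marks beta-catenin for destruction, had −3.40 ± 1.39 in R26Y hybrids with one of its 3 probes. R26Y hybrid replicate 2 lay at −8.77 for it, not well above background, beside −3.68 in replicate 1. Probe A_52_P212025 of the receptor kinase Ror1 was well above background in both pooled unfused arrays and in neither R26Y hybrid array, at least 1.02-fold lower as a bound. The other Ror1 probe was well above background on both arrays of both groups, with −0.49 ± 0.69. The secreted Wnt binder Sfrp1 had 1.16 ± 0.64, with 1 of 2 unfused arrays well above background, and the Lrp inhibitor Dkk2 had −2.03 ± 1.12, with 1 of 2 R26Y arrays. In GFAP-Cre hybrids they were Ctnnb1 and 3 further genes. The probe taken for each was well above background in only one of the groups, so that the folds are bounds. With those probes the R-spondin Rspo1 was at least 2.09-fold lower, the transcription factor Lef1 at least 4.09-fold higher and the surface protein Cd44 at least 2.33-fold lower. Other probes of Lef1 and Cd44 were well above background on both arrays of both groups. Lef1 A_51_P420400 lay at −4.82 and −6.36 in GFAP-Cre hybrids, against −4.12 and −6.49 in pooled unfused cells. Cd44 A_55_P2064043 lay at 4.51 and 4.81, against 4.43 and 4.52. In FoxA2-Cre hybrids the polarity cadherin Celsr2 had 1.85 ± 0.55 (limma adjusted p = 0.474) and the Wnt inhibitor Nkd2 −1.69 ± 0.60. Each value is from a probe well above background on all 10 arrays. The other probe of each gene was not well above background on any slide 2 array. Znrf3, the ligase that removes Frizzled from the surface, was at least 1.31-fold lower, with neither hybrid array well above background. The fourth, a probe of the Hedgehog transducer Smo, was not well above background on any slide 2 array. The other Smo probe, well above background on all 10 arrays, had 1.09 ± 0.64.

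For the pair of Frizzled probes detected most widely, the probes with the most similar profile over 10 arrays, after each slide's mean was removed, were read as a description. Npnt (Pearson r = 0.971), Abpb (0.958) and Cdcp2 (0.953) were nearest to Fzd5 A_51_P166456, of 4170 candidates, 25 of which exceeded 0.9. Ctrl (0.956), Celf4 (0.946) and Olfr190 (0.926) were nearest to Fzd9, of 4171 candidates. Probes of an array share its depth and scaling.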

How the data were processed

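RNA of 10 sorted pools was amplified, labelled from 500 ng of cDNA and hybridised to 1-colour Agilent arrays, per the labels' protocols. The deposited scanner files hold spot intensity from Feature Extraction 10.7.3.1 with mm9 probe positions, per the file headers. The authors' deposited matrix holds log2 values whose scale and normalization are not given in the sources used here; its medians were 7.39 on slide 1 and 6.26 on slide 2, so each slide may have been normalized separately, and it served as an alternative.

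Processed signals were taken as log2, minus the array's 75th percentile (taken over the spots that every array had well above background), and spots of a probe were averaged. Probes well above background on at least 2 arrays (50005) were fitted with limma 3.58.1 in R 4.3.3 as 5 group means (5 residual degrees of freedom), or with recipient set as covariate. Benjamini-Hochberg adjustment ran over all tested probes, with a threshold of 0.05. The fit was tested on simulated data. No spot was saturated. The number of arrays limits the precision.

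All Frizzled probes are named. Pathway genes are named if past the threshold, otherwise the 4 with the smallest p per comparison, plus Lrp5, Lrp6, Ctnnb1, Axin2 and Dishevelled genes. Nearest profiles are the 3 highest correlations. The members and lists were chosen with earlier results of these data known. The replicate numbers were not shown to pair samples.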

Additional observations from a re-analysis of the deposited data

How the results depend on the processing

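No Frizzled probe passed under any of the normalization, scaling, filter, block or probe-choice alternatives run. Leaving out 1 array gave 0 to 1 Frizzled calls in R26Y hybrids and in GFAP-Cre against R26Y hybrids, the 1 being Fzd2 A_52_P129428 without R26Y hybrid replicate 1, and 0 in the other comparisons. The probe's limma adjusted p was then 0.0157 and 0.0107, against a reading not well above background. Over all probes, leave-one-out counts ran from 0 to 3897 in R26Y hybrids, 0 to 3658 in GFAP-Cre against R26Y hybrids, 66 to 658 in FoxA2-Cre hybrids and 0 to 132 for the difference in hybrid effect. Leaving out a FoxA2-Cre hybrid array changed the split of those calls, to 143 higher and 180 lower when replicate 1 was dropped and to 303 higher and 186 lower when replicate 2 was.

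For FoxA2-Cre hybrids the count over all probes was 100 with the replicate block, and 0 with slide row, with slide column and with that slide alone. For the difference in hybrid effect it was 5, all lower, with quantile normalization (4 higher and 27 lower as reported), 67 with the authors' matrix, and 0 with the replicate block, slide row or slide column. The correlation of same-numbered replicates between groups was −0.08 to 0.27, so the numbers are not shown to pair samples. The cause of these changes was not tested.

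Whether a Frizzled probe stood higher on slide 1 or on slide 2 depended on the values used. The slide 1 mean was higher for 6 of 13 probes as reported, 1 with normexp and 13 with the authors' matrix. Signs of the Frizzled differences, none of which passed, also changed under alternatives, in 18 of 206 values for R26Y, 13 for GFAP-Cre and 18 for FoxA2-Cre hybrids. On slide 2 the low share of probes well above background limits what can be said of every Frizzled probe but Fzd5 A_51_P166456.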
